A study of Mus musculus with 5 samples.

Results

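The 38 genes described here act in the cell division cycle, and all 38 are among the 21617 genes of a single-cell RNA count table from mouse foreign body granulomas. They were taken from a list of well-known cycle genes and fall into 4 roles. The replication set holds 13 genes, from the clamp gene Pcna to the helicase subunits Mcm2 to Mcm7. The mitotic control set holds 14 genes for cyclins, kinases and checkpoint proteins, the spindle and centromere set holds 8, and Mki67, Top2a and Stmn1 make up the rest. A cell was called cycling where its raw counts of Mki67 and Top2a summed to 2 or more unique molecular identifiers (UMIs, each standing for 1 captured RNA molecule). By this rule 1078 of 41191 cells were cycling (2.62%).

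The cells came from 5 libraries, 1 for each group, so no difference between groups has a replicate check. The control library held macrophages drawn into the mouse peritoneum with thioglycollate, an irritant broth. The other 4 held cells of foreign body granulomas, the tissue that forms around an implant, taken 2 or 4 weeks after implantation of sponge or of silk. The labels used here give neither the strain, age or sex of the mice nor how many animals made up a library. The submitters deposited a class for each cell, and each class had the highest level of its own fixed markers. The classes were monocytes, macrophages and dendritic cells (deposited as Mo-Mac/DC, here Mo-Mac, with subclusters C1 to C10) and fibroblasts (F1 to F4 and smaller subclusters). The others were T and natural killer cells (NK/T), endothelial cells, B cells, neutrophils and cells deposited as myocytes. The fixed markers of this last class (Acta2, Tagln, Myh11, Rgs5, Notch3 and Pdgfrb) are those of myocytes or mural cells of vessels. Which of these the class holds was not tested, and the deposited name is kept here.

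A cell that is to divide copies its DNA in S phase and separates the copies in mitosis. Genes for replication proteins are switched on by E2F transcription factors at the entry to S phase. Genes for mitosis are held down in resting cells by the DREAM complex, and are switched on later by B-MYB and FOXM1 at promoter elements named CHR and CCAAT. Macrophages in tissue can be replaced from blood monocytes or can divide where they are, while fibroblasts and endothelial cells are known to divide in healing tissue.

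The libraries held 1873 to 12347 cells each (4-week silk the fewest), with median counts of 3818 to 7109 UMIs per cell and totals of 11207419 to 96066597 UMIs. The control was the deepest per cell. Of 41038 barcodes, 153 occurred in 2 libraries, and none of these was cycling in both. Because cells of 4-week silk were few, its values rest on the smallest counts throughout. Intervals are 95% and cover counting error only: exact binomial intervals for shares, Newcombe intervals for differences of shares, and intervals from the 2 counts for ratios. Levels are counts scaled to 1000000 UMIs of the cells named (CPM). The assay counts 3′ ends, so each gene is compared with itself across cells, and levels of different genes are not compared.

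Mki67 (chr7:135689784-135716361, minus strand, GRCm38) codes for the coat protein of mitotic chromosomes that pathologists stain as Ki-67, and Top2a (chr11:98992943-99024189, minus strand) for the topoisomerase that untangles replicated DNA. Summed counts of the pair were 0 in 38691 cells, 1 in 1422, 2 in 271, 3 in 104 and at least 4 in 703. Cells just inside the limit, at a sum of 2, had a median of 1 of the 22 mitotic control and spindle genes detected, and cells just outside it, at a sum of 1, had a median of 0. The median was 5 genes at a sum of 3 and 16 at 4 or more. Depth moved with the call: cycling cells held a median of 15202.5 UMIs and other cells 4883, and 2.62% of the cells held 6.59% of all UMIs. Shares were therefore also computed after thinning every cell to 1000 UMIs, which left out 3499 shallower cells, 2337 of them Mo-Mac. How far depth sets the difference between classes beyond this was not tested.

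The genes differed in how closely their RNA kept to the cycling cells. The 8 spindle genes had a median of 87.8% of their UMIs in cycling cells, the 14 mitotic control genes 84.1% and the 13 replication genes 38.4%, where cycling cells held 6.59% of all UMIs. Cenpf, a kinetochore protein, had 94.2% of its UMIs there, and Nusap1, which bundles spindle microtubules, had 93.01%. Ccnb1 and Ccna2, the cyclins that drive entry into mitosis and passage through S phase, had 92.4% and 92.1%. Among the replication genes, Pclaf, which binds the clamp, had 89.7%, Rrm2 83.5% and Tk1 76.9%, and the other 10 lay below 50%. At the other end, Pcna, the clamp that holds DNA polymerase on its template and that also serves in DNA repair, had 14.5% of its UMIs in cycling cells and was detected in 46.9% of all cells. The helicase genes Mcm3, Mcm6, Mcm4 and Mcm2 had 24.9%, 26.4%, 26.7% and 31.5%, and Gmnn, the inhibitor of origin licensing, had 27.5%. Cenpa, the centromere histone, was the spindle gene with the least, at 34.8%. Of the 38 genes, 18 had at least 80% of their UMIs in cycling cells and 11 had under 50%. The values of Mki67 (90.4%) and Top2a (89.3%) follow from the rule that chose the cells. Other genes of the same process go with this pair, so the order of the roles depends on the rule too and is a description. Cells with cycle RNA that the rule missed are described below with C8.

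**Figure D1:**
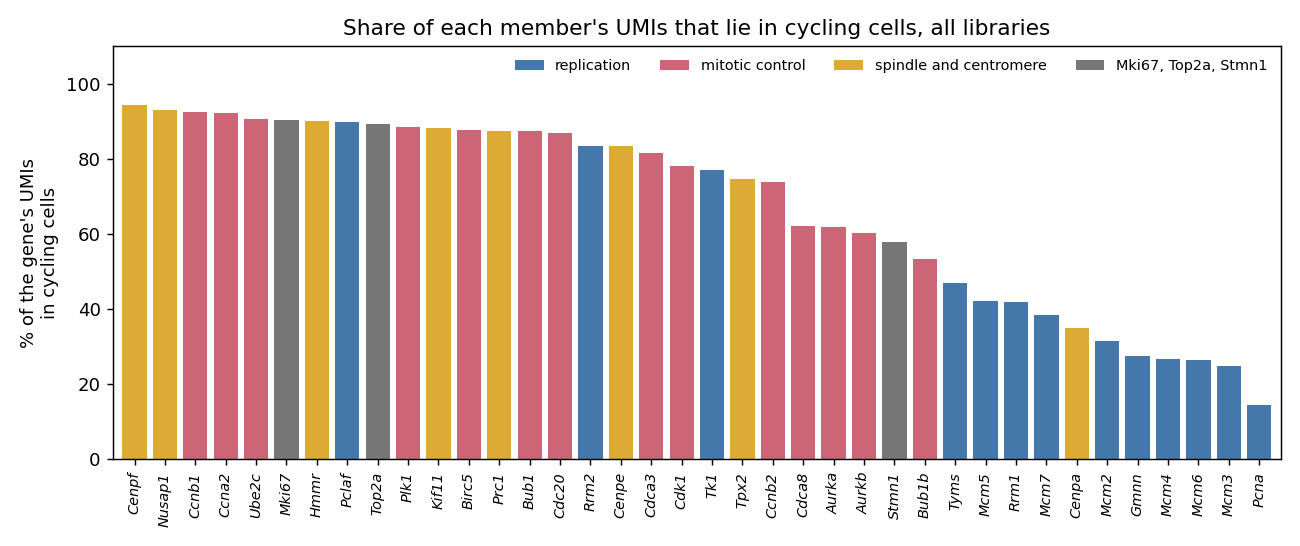
Each bar is 1 of the 38 genes, ordered from high to low, with its height the percent of the gene's UMIs found in the 1078 cycling cells (y axis) and its colour the role. Spindle and mitotic control genes lie mostly to the left, with Cenpa at 34.8% as the exception among spindle genes, and replication genes mostly to the right, with Pclaf at 89.7%.

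The promoters of the same genes are shown because the roles also differ in their promoter letters. RefSeq windows of 300 bases (250 before to 50 after the gene start, GRCm38.p6) were matched for 32 of the 38 genes, among 27025 genes. The CHR letters TTTGAA, on either strand, were present in 18.1% of all windows. They were in 9 of 12 mitotic control windows, 5 of 7 spindle windows and both others, but in 1 of 11 replication windows. The letters CCAAT, on either strand, were in 37.9% of all windows and in 28 of 32 of these. Any of 4 spellings of the E2F element (TTTGGCGC, TTTCCCGC, TTTCGCGC, TTTGCCGC, which can overlap one another on opposite strands) was in 2.32% of all windows. Those spellings were in 5 of 11 replication windows (Pclaf, Mcm3, Mcm5, Mcm6 and Mcm7), in 1 of 12 mitotic control windows (Cdk1) and in 0 of 7 spindle windows. TATAAA was in 14.2% of all windows and in 0 of 32. A match of letters is a description and not a shown binding site, and no binding was measured. The stretches below end at the gene start (Cdc20's shortly before it), read 5′ to 3′ on the gene's strand, with the CHR, CCAAT and E2F letters in capitals. They show the pair that defines the rule, a mitotic control gene, a spindle gene and 2 helicase genes. The positions are Top2a chr11:99024190-99024349 (minus), Mki67 chr7:135716380-135716539 (minus), Cdc20 chr4:118437353-118437503 (minus), Kif11 chr19:37376222-37376381 (plus), Mcm6 chr1:128359706-128359865 (minus) and Mcm5 chr8:75109349-75109508 (plus).
Top2a: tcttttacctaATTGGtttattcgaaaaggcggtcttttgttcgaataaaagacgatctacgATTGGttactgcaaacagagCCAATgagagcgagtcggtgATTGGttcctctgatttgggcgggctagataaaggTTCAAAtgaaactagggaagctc
Mki67: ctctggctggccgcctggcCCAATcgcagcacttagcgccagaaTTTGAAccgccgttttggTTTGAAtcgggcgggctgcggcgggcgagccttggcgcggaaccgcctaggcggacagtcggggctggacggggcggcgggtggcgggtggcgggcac
Cdc20: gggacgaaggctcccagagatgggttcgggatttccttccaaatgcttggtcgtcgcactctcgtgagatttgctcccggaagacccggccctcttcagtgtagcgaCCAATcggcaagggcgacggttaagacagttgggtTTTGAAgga
Kif11: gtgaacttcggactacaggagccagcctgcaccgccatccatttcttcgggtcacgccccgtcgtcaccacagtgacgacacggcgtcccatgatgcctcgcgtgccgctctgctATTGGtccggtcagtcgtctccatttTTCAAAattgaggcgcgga
Mcm6: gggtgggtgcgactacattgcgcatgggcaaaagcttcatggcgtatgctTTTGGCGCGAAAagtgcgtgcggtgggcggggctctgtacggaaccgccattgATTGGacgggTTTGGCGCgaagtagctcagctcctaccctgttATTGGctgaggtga
Mcm5: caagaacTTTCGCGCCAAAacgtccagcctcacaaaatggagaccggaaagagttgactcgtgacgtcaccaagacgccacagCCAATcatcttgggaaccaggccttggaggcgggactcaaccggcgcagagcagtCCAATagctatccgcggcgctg
In the first 4 of these the capitals are CHR and CCAAT letters, and in the Mcm6 and Mcm5 stretches they are E2F and CCAAT letters.

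Across cell classes, cycling cells were most frequent among fibroblasts and myocytes, followed by NK/T and endothelial cells, and were rare among neutrophils and B cells. Fibroblasts held 493 of the 1078 cycling cells (45.7%) although they were 5159 of the 41191 cells, and Mo-Mac held 362 (33.6%) of 28814. Endothelial cells held 98, NK/T cells 80, myocytes 41, B cells 3 and neutrophils 1. In 2-week sponge the shares cycling were 12.1% of myocytes (8.47 to 16.6), 10.2% of NK/T cells (7.57 to 13.3), 9.78% of fibroblasts (8.60 to 11.1), 6.54% of endothelial cells (4.94 to 8.47) and 1.72% of Mo-Mac (1.44 to 2.05). The intervals of myocytes, NK/T cells and fibroblasts overlapped, so their order in that library is not resolved, while Mo-Mac lay below all of them. Neutrophils, short-lived cells that do not divide after leaving the bone marrow, gave the background: 1 of 2286 cells (0.0437%) at a median of 1507 UMIs. B cells gave 3 of 744 in the control (0.403%) and 0 of 109 in the granulomas, where a count of 0 allows up to 3.33%.

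**Figure D2:**
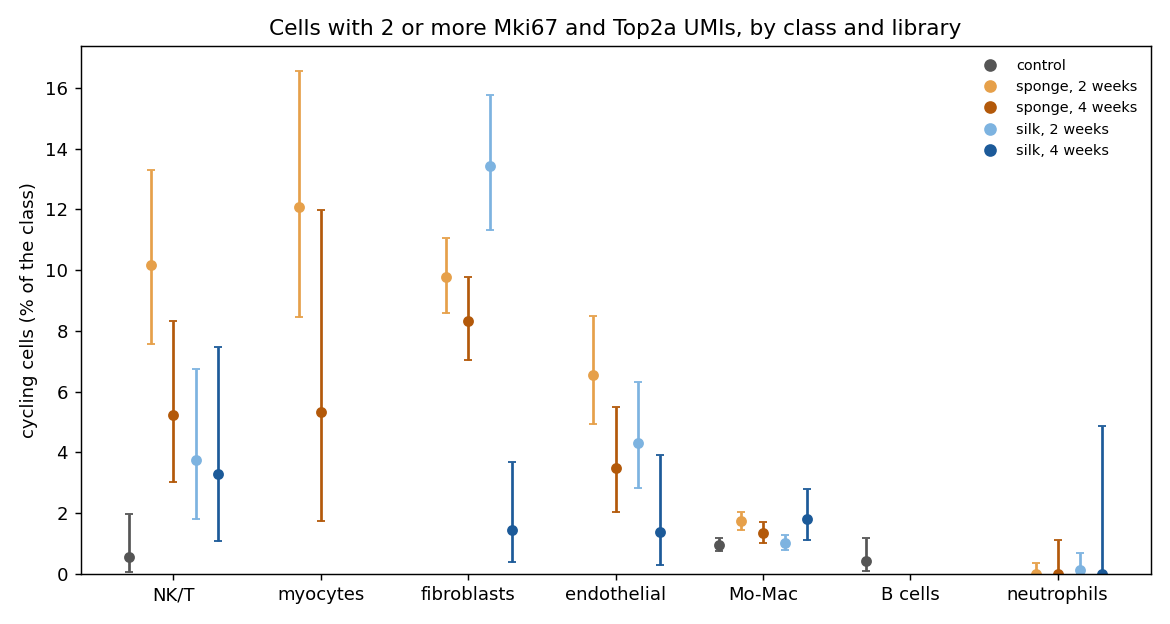
Percent of cells called cycling (y axis) in each cell class, with 1 point per library of at least 50 cells of the class and exact 95% binomial intervals. Fibroblasts and NK/T cells of 2-week sponge sit near 10%, Mo-Mac stay between 0.935% and 1.81%, and silk fibroblasts go from 13.4% at 2 weeks to 1.45% at 4 weeks.

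Thinning moved the order of the classes. After thinning to 1000 UMIs per cell the share in 2-week sponge was 3.91% in NK/T cells, 2.38% in myocytes (0.879 to 5.11) and 1.42% in fibroblasts. It was 0.811% in endothelial cells (0.298 to 1.76) and 0.361% in Mo-Mac (0.234 to 0.532), so the intervals of the last 2 overlapped. Fibroblasts of that library held a median of 14348 UMIs and Mo-Mac 4787. Over all libraries pooled, the raw share was 9.56% in fibroblasts and 5.14% in NK/T cells, and the thinned share 1.30% and 1.80%. The pooled order of these classes therefore differed between the raw and the thinned shares. Myocytes were also a mixed class by markers, since 40.8% of them, and 43.9% of the cycling ones, counted as 2-lineage. In such a cell the markers of another class reach 20% of that class's own median share of UMIs, on at least 3 UMIs. The part of such cells in the share of myocytes was not tested.

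Gene by gene, NK/T cells and fibroblasts held the highest levels. Over all libraries pooled, the highest class was NK/T for 18 genes, fibroblasts for 19 and endothelial cells for Tyms, which makes thymidylate for DNA. NK/T cells were highest for 11 of the 13 replication genes, and fibroblasts for 13 of the 14 mitotic control genes and 5 of the 8 spindle genes. The pooled NK/T cells include 367 of the control, where the fibroblasts number 4, and within libraries the order was not constant. NK/T cells were above fibroblasts for 12, 12, 8 and 9 of the 13 replication genes in 2-week sponge, 4-week sponge, 2-week silk and 4-week silk. For the 14 mitotic control genes the numbers were 9, 0, 0 and 13, and for the 8 spindle genes 6, 3, 2 and 6. The pooled order of mitotic control genes therefore held in 4-week sponge and 2-week silk and was the opposite in the other 2 granulomas. Birc5, for example, was at 74.7 CPM in NK/T cells and 43.7 CPM in fibroblasts of 2-week sponge. Over the pooled libraries the level was higher in fibroblasts than in Mo-Mac for 35 of 38 genes and higher in NK/T cells than in Mo-Mac for all 38. Neutrophils were lowest for 25 genes and B cells for 13.

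**Figure D3:**
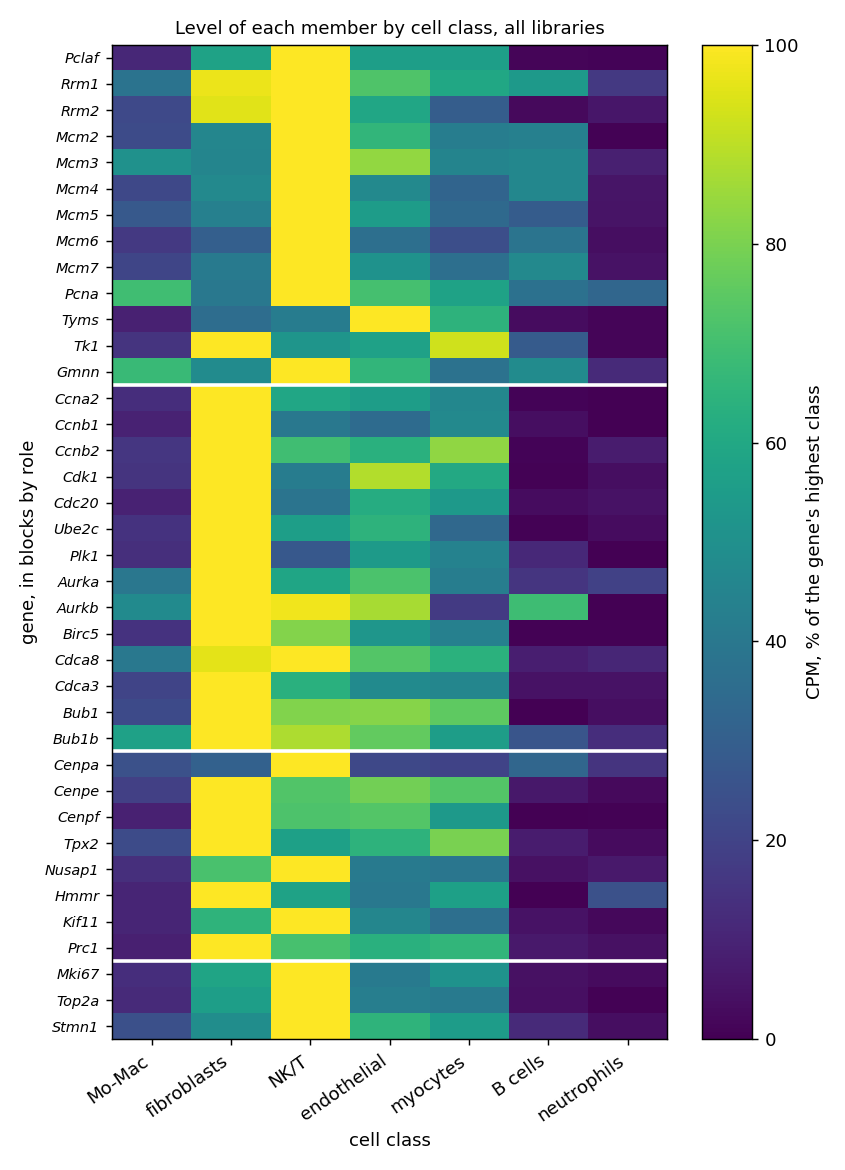
Each row is 1 of the 38 genes and each column a cell class, coloured by the gene's CPM over all libraries as a percent of its own highest class. In this pool replication genes peak mostly in NK/T cells and mitotic control genes in fibroblasts (within 2-week sponge NK/T cells are the higher of the pair for 9 of 14 of the latter), and neutrophils are low throughout, as are B cells for most mitotic control and spindle genes.

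Inside the cycling cells, the balance of the roles also differed between classes. Of the replication and mitotic UMIs of cycling cells, replication genes made up 26.7%, 35.1% and 34.3% in fibroblasts of 2-week sponge, 4-week sponge and 2-week silk. In cycling Mo-Mac the figure was 45.8%, 42.4% and 49.1% in the same libraries and 30.8% in 4-week silk, and in cycling NK/T cells 48.1%, 69.4% and 49.1%. Fibroblasts lay below both other classes in each of the 3 libraries. The called cells also differ in how near the limit they lie, since 130 of 362 in Mo-Mac and 73 of 493 in fibroblasts had a sum of 2. Among cells with a sum of 4 or more, the figure was 24.6%, 33.6% and 33.3% in fibroblasts, 45.9%, 40.6% and 45.95% in Mo-Mac and 44.6%, 62.7% and 47.9% in NK/T cells, the last 2 of these on 5 and 6 cells. Between cells called cycling, fibroblasts were above Mo-Mac for 11, 6 and 13 of the 14 mitotic control genes in 2-week sponge, 4-week sponge and 2-week silk. They were above for 8, 3 and 7 of the 8 spindle genes and for 2, 3 and 5 of the 13 replication genes. All 3 fibroblast libraries lay above all 4 Mo-Mac libraries for 3 of the 14, 2 of the 8 and 0 of the 13. Of these 5 genes, Prc1, which bundles microtubules between the separating chromosomes, was at 284, 160 and 191 CPM in the fibroblasts of those 3 libraries. In Mo-Mac it was at 109, 112, 97.8 and 110 CPM in the 4 granulomas, with no overlap. Mcm6 was at 64.0 CPM in cycling fibroblasts of the granulomas together, 102 in cycling Mo-Mac and 173 in cycling NK/T cells, and Pcna at 232 CPM in fibroblasts and 502 in Mo-Mac. In bulk sums such as these, more cells in S phase and more RNA per cell cannot be told apart. Counted by cell, replication UMIs exceeded mitotic ones in 34.5%, 35.6% and 33.9% of cycling fibroblasts of 2-week sponge, 4-week sponge and 2-week silk. In cycling Mo-Mac of these libraries it was 50%, 45.3% and 55.3%, and in 4-week silk 20%. In both sponge libraries the intervals of the 2 classes overlapped.

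Among Mo-Mac, the question the design allows is how macrophages of the granulomas differ from elicited peritoneal macrophages. The share cycling was 0.935% in the control (74 of 7912, 0.735 to 1.17) and 1.72% in 2-week sponge (128 of 7430, 1.44 to 2.05). It was 1.32% in 4-week sponge (64 of 4834, 1.02 to 1.69), 1.01% in 2-week silk (76 of 7532, 0.796 to 1.26) and 1.81% in 4-week silk (20 of 1106, 1.11 to 2.78). The 2-week sponge library and 4-week silk were the highest, and 2-week silk lay within the interval of the control. The differences from the control, in percentage points, were 0.787 (0.427 to 1.16) and 0.389 (0.0173 to 0.798) for 2-week and 4-week sponge. For silk they were 0.0737 (-0.238 to 0.389) at 2 weeks and 0.873 (0.195 to 1.86) at 4 weeks. The control cells were deeper, at a median of 7720.5 UMIs against 3182 to 4787 in the granulomas. Thinned to 1000 UMIs, the shares were 0.106% in the control, against 0.361%, 0.429%, 0.189% and 0.549% in the granulomas. With a sum of 1 taken as enough, the control (5.19%) lay above 4-week sponge (3.77%), 2-week silk (3.27%) and 4-week silk (4.88%), so that direction depends on the limit.

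The summed level of the 38 genes was higher in Mo-Mac of every granuloma than in the control, at 328 CPM in the control, against 544, 543, 426 and 586 CPM in 2-week sponge, 4-week sponge, 2-week silk and 4-week silk. The log2 ratios to the control were 0.73 (0.70 to 0.76), 0.73 (0.69 to 0.76), 0.38 (0.35 to 0.40) and 0.84 (0.79 to 0.89). All 4 ratios share the control library. Mitotic control genes had the larger ratios (1.44, 1.73, 1.07 and 2.19), spindle genes lay between (0.91, 0.94, 0.34 and 1.37 in the same order) and replication genes had 0.61, 0.54, 0.39 and 0.36. All 38 genes had enough counts to be compared. Genes at least 2-fold above the control numbered 23 in 2-week sponge, against 16.1% of all genes tested, and 22 in 4-week sponge, against 15.7%. They numbered 15 in 2-week silk, against 13.8%, and 25 in 4-week silk, against 13.7%. None was 2-fold lower, against 12.6%, 11.5%, 12.7% and 11.2% of all genes in the same order. The median log2 ratio of the 38 was 1.37, 1.35, 0.76 and 1.66 in that order, and of all genes -0.10, -0.01, -0.05 and -0.04. Many of these genes are low in Mo-Mac, and with 5 CPM added to both sides the counts were 2, 4, 1 and 9.

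By role, the genes at least 2-fold above the control were 12, 12, 10 and 12 of the 14 mitotic control genes in 2-week sponge, 4-week sponge, 2-week silk and 4-week silk. They were 5, 5, 3 and 7 of the 8 spindle genes, but 4, 4, 2 and 4 of the 13 replication genes. Ube2c, the enzyme that starts the destruction of cyclin B, was at 3.63 CPM in control Mo-Mac and at 12.1, 20.3, 9.05 and 23.5 CPM in 2-week sponge, 4-week sponge, 2-week silk and 4-week silk. Its log2 ratios ran from 1.32 (1.09 to 1.54) in 2-week silk to 2.70 (2.40 to 2.98) in 4-week silk. Ccnb2, a B-type cyclin, was at 1.09 CPM in the control, against 4.71, 6.54, 2.68 and 14.1 CPM in the granulomas. Its log2 ratio in 4-week silk, 3.69 (3.25 to 4.13), was the highest among the 38 genes and 4 comparisons. Tk1, which salvages thymidine for DNA synthesis, was at 0.639 CPM in the control, against 4.87, 2.71, 2.59 and 6.29 CPM in the granulomas. Rrm2, the ribonucleotide reductase subunit that limits the supply of deoxynucleotides, was at 1.36 CPM and 5.41, 10.2, 4.74 and 5.09 CPM. For Ube2c, Ccnb2 and Tk1 4-week silk was the highest, whereas for Rrm2 it was 4-week sponge.

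Several genes of the list went another way. Gmnn was at 20.2 CPM in the control, against 14.5, 13.3, 10.8 and 14.7 CPM in the granulomas, with log2 ratios to that shared control of -0.48, -0.60, -0.90 and -0.46. Aurkb, the kinase that corrects chromosome attachment, was at 4.50 CPM in the control, against 3.71, 3.43, 2.77 and 4.94 CPM. Its log2 ratios ran from -0.70 to 0.15 and were above 0 in 1 of the 4 granulomas. Stmn1, which destabilises microtubules and is also made outside division, was at 37.9 CPM in the control, against 40.1, 45.5, 23.2 and 54.7 CPM, so 2-week silk was the library below the control. Mcm6 log2 ratios ran from -0.51 (-0.91 to -0.16) in 4-week silk to 0.22 (0.08 to 0.36) in 2-week sponge. Pcna, the gene of the list with the most UMIs in Mo-Mac, was at 112 CPM in the control, against 190, 173, 175 and 151 CPM.

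**Figure D4:**
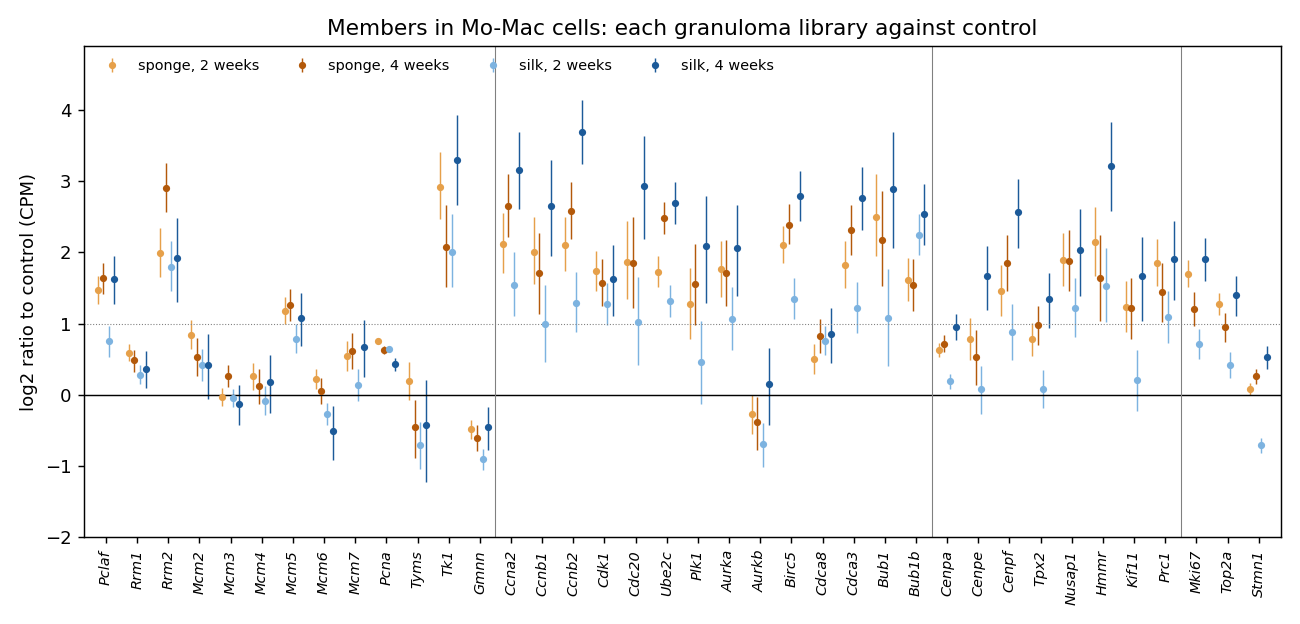
Log2 ratio of each of the 38 genes in Mo-Mac of the 4 granulomas to control Mo-Mac (y axis), grouped by role, with 1 colour per granuloma, 95% counting intervals as bars and a dotted line at 1 (2-fold). Mitotic control genes lie mostly above 1, and replication genes spread from Gmnn, between -0.90 and -0.46, to Rrm2 and Tk1, above 1 in all 4 granulomas.

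The higher levels lay largely in the subcluster C8. It was 0.341% of control Mo-Mac and 1.79%, 1.86%, 0.810% and 2.17% of Mo-Mac in 2-week sponge, 4-week sponge, 2-week silk and 4-week silk. Clusters are made from expression, cycle genes included, so the high level in C8 (5383 to 7500 CPM over the 5 libraries) describes the cluster and is not a result. In C8 the share called cycling was 85.2% in the control (23 of 27) and 66.9% (89 of 133), 61.1% (55 of 90), 75.4% (46 of 61) and 66.7% (16 of 24) in the granulomas, with intervals that all overlapped. Without C8 the Mo-Mac log2 ratios of the summed level to the control were 0.32, 0.26, 0.17 and 0.13, and the share cycling was 0.647% in the control, against 0.534%, 0.190%, 0.402% and 0.370% in the granulomas. The share was thus above that of every granuloma in the control once C8 was left out. C8 held 31.1% of the called Mo-Mac of the control and 60.5% to 85.9% of those of the granulomas. Its removal therefore lowers the granulomas more by construction, and this order is not a result.

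The cycling Mo-Mac of the control differed from those of the granulomas. C8 held 23 of the 74 in the control (31.1%), where 42 lay in C1, and 69.5%, 85.9% and 60.5% of those in the first 3 granulomas, and 16 of 20 in 4-week silk. The summed level of the 38 genes in cycling Mo-Mac was 2827 CPM in the control, against 5199, 6448, 5149 and 6307 CPM in the granulomas. The median number of mitotic control and spindle UMIs per cycling cell was 2 in the control, against 14, 19, 8 and 42 in the granulomas. The 42 cycling cells of C1 in the control had a summed level, Mki67 and Top2a included, of 541 CPM, against 271 in the other C1 cells and 7500 in C8. Control cells with a low sum thus made up much of that library's count, and at a sum of 3 or more its share was 0.442% against 1.24% in 2-week sponge. In the control 5 of the 74 cycling Mo-Mac (6.76%) carried markers of a second lineage. Over all libraries, the 4 B cell markers summed to 80.6 CPM in cycling Mo-Mac and 6.17 CPM in all Mo-Mac, and their part in the result was not tested.

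Outside C8, cycling Mo-Mac were spread thinly. In granulomas they were 2.41% of C9 (19 of 789), 0.551% of C4 in 2-week sponge (14 of 2542) and 0.493% of C7 in 2-week silk (22 of 4461). The deposited class also takes in dendritic cells, and the cycling cells of C9 were not typed further. C3 held 1 of 1318 and the cells of C6 and C5 held 7 of 5548 and 8 of 1934. Cells of C8 that missed the limit were not empty of cycle RNA: in the granulomas the 102 such cells had a summed level of 2509 CPM, against 7135 in the 206 called. Replication genes made up 57.6% of their replication and mitotic UMIs against 43.0% in those called. The same held in F3, the matching fibroblast subcluster, where 54 cells missed the limit, at 2759 CPM against 5970, and with 58.1% against 30.4% of replication UMIs. The summed level includes Mki67 and Top2a, which set the limit, so its direction is partly fixed by the rule. The missed cells were also shallower, at a median of 4965 UMIs against 10316 in C8 and 9675 against 20813 in F3. By library the replication share of the missed C8 cells was 73.4%, 51.2%, 53.1% and 18.1% in 2-week sponge, 4-week sponge, 2-week silk and 4-week silk, against 44.8%, 41.6%, 46.3% and 28.7% in those called, so 4-week silk went the other way. Without 2-week sponge it was 47.1% against 41.6% in C8 and 53.2% against 34.7% in F3.

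**Figure D5:**
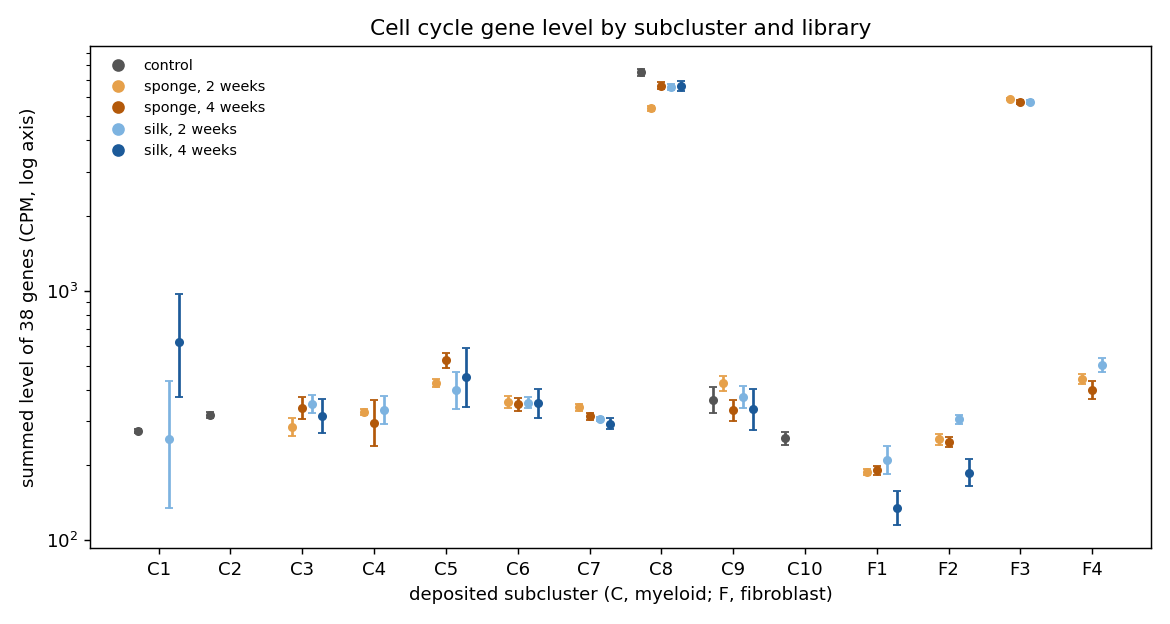
Summed CPM of the 38 genes (y axis, log scale) in each subcluster, with 1 point per library of at least 20 cells and 95% counting intervals. C8 lies between 5383 and 7500 CPM and F3 of the first 3 granulomas between 5699 and 5861 CPM, and other Mo-Mac subclusters lie between 254 and 623 CPM, both ends from C1 of silk, with 26 and 25 cells.

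Among the granulomas, log2 ratios of the summed level in Mo-Mac by material or time lay between -0.35 and 0.46. The 2-week silk library lay below 2-week sponge by 0.714 points (interval of the difference -1.09 to -0.343), with a log2 ratio of the summed level of -0.35 (-0.38 to -0.33). There 36 of the 38 genes were lower, 3 of them at least 2-fold, against 8.83% of all genes. Mki67 was at 15.8 CPM in sponge and 7.95 in silk, while Bub1b, the checkpoint kinase that delays chromosome separation, was higher in silk with a log2 ratio of 0.63 (0.39 to 0.86). At 4 weeks the difference of shares was 0.484 points (-0.247 to 1.49) in favour of silk and the log2 ratio 0.11 (0.06 to 0.16), and 5 genes were at least 2-fold higher in silk, against 2.11% of all genes. Without C8 that ratio turned to -0.13. Sponge at 4 weeks against 2 gave -0.399 points (-0.829 to 0.0548) and a log2 ratio of -0.00 (-0.04 to 0.03). Silk at 4 weeks against 2 gave 0.799 points (0.116 to 1.79) and 0.46 (0.41 to 0.51), with 17 genes at least 2-fold higher, against 6.07% of all genes. In that last comparison mitotic control and spindle genes had log2 ratios of 1.13 and 1.02, and replication genes -0.03 (-0.10 to 0.04). Without C8 it was -0.04 for all 38, but C8 is a cluster made in part from cycle genes, so its removal tests no cause. The 4-week silk library holds 24 cells of C8.

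In fibroblasts the silk library at 4 weeks had the fewest cycling cells. The share cycling was 9.78% in 2-week sponge (226 of 2311), 8.32% in 4-week sponge (135 of 1622), 13.4% in 2-week silk (127 of 946) and 1.45% in 4-week silk (4 of 276, 0.396 to 3.67). The summed level was 969, 941, 1303 and 310 CPM in the same order. Cells that the submitters labelled low quality made up 7.96%, 7.83%, 12.3% and 22.5% of these fibroblasts, most in 4-week silk. Without them and the small KC subcluster the log2 ratio of 4-week silk to 4-week sponge, an alternative added after seeing the data, was -1.64. The 4-week silk library was below 4-week sponge by 6.87 points (interval of the difference -8.57 to -4.33), with a log2 ratio of -1.60 (-1.70 to -1.502). All 38 genes were lower there, 31 of them at least 2-fold, against 6.37% of all genes, and these were all 14 of mitotic control, all 8 of the spindle, 6 of the 13 of replication and the 3 others. Mitotic control genes had a log2 ratio of -2.91 (-3.21 to -2.63), spindle genes -2.42 (-2.77 to -2.10) and replication genes -0.80 (-0.93 to -0.68). Against 2-week silk, 35 of the 38 were at least 2-fold lower, against 10.1% of all genes, with a log2 ratio of -2.07 for the sum. The control library held 4 fibroblasts and gives no comparison.

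Single genes were likewise lowest in 4-week silk. Ube2c was at 64.0, 66.0, 74.8 and 4.41 CPM in fibroblasts of 2-week sponge, 4-week sponge, 2-week silk and 4-week silk. Its log2 ratio of 4-week silk to 4-week sponge was -3.85 (-4.86 to -3.10). Cenpf was at 36.7, 21.6, 42.3 and 1.47 CPM. Cdc20, which activates the complex that triggers chromosome separation, was at 15.6, 11.5, 19.4 and 0 CPM, and against a floor of 3 UMIs it was at least 10.5-fold lower in 4-week silk than in 4-week sponge. Pcna differed less, at 75.5, 95.9, 111 and 72.0 CPM, with a log2 ratio of -0.41 (-0.63 to -0.20) at 4 weeks. The 2-week silk library was the highest for all 4 genes. In 2-week silk 37 of the 38 genes were higher than in 2-week sponge, none of them 2-fold, where 5.87% of all genes were. There Mcm2 and Pclaf had log2 ratios of 0.81 (0.59 to 1.03) and 0.80 (0.68 to 0.92), and Prc1 was the gene that was lower, at -0.19 (-0.33 to -0.04).

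As in Mo-Mac, 1 subcluster held most cycling fibroblasts. F3 held 409 of the 493, and 89.7%, 87.9% and 89.9% of its cells were called in 2-week sponge, 4-week sponge and 2-week silk. It was 8.83%, 8.14%, 12.6% and 2.90% of the fibroblasts of the 4 granulomas, with 8 cells in 4-week silk. Elsewhere 0.703% of F1, 2.74% of F2 and 5.48% of F4 were cycling. In fibroblasts that were not cycling the summed level was 213, 237, 318 and 189 CPM in the 4 granulomas, a narrower range than over all fibroblasts. Depth again moved with the library: fibroblasts of 4-week silk held a median of 6909 UMIs, against 11192.5 to 14348 in the others. Thinned to 1000 UMIs the shares were 1.42%, 0.978%, 1.66% and 0.452%, and the interval of each difference between libraries included 0. The log2 ratio of the summed level of 4-week silk to 4-week sponge was -1.09 after thinning and -0.63 as a mean of per-cell shares.

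In NK/T cells the granulomas had higher shares and levels than the control, most clearly in 2-week sponge. The share cycling was 0.545% in the control (2 of 367), 10.2% in 2-week sponge (47 of 462), 5.21% in 4-week sponge (16 of 307), 3.73% in 2-week silk (10 of 268) and 3.27% in 4-week silk (5 of 153). The summed level was 654, 2016, 1318, 1480 and 1115 CPM, so all 4 granulomas lay above the control and 2-week sponge was the highest. The log2 ratios to the control were 1.62 (1.51 to 1.73), 1.01 (0.88 to 1.14), 1.18 (1.05 to 1.31) and 0.77 (0.60 to 0.94). Of the genes with enough counts, 28 of 35 were at least 2-fold higher in 2-week sponge, against 8.08% of all genes, and 9 of 21 in 4-week sponge, against 11%. In silk they were 11 of 22 at 2 weeks, against 9.79%, and 5 of 17 at 4 weeks, against 10.1%. The genes left out had under 20 UMIs in the 2 libraries together. Thinned to 1000 UMIs the shares were 0.567% in the control (0.0687 to 2.03) and 3.91% (2.29 to 6.18), 1.08%, 1.19% and 0.794% in the granulomas. The thinned intervals of 4-week sponge and of both silk libraries overlapped that of the control, with 3, 3 and 1 cycling cells.

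Top2a was at 30.1 CPM in control NK/T cells and at 176, 81.1, 80.6 and 62.9 CPM in 2-week sponge, 4-week sponge, 2-week silk and 4-week silk. Pclaf was at 28.5, 140, 73.9, 55.3 and 5.03 CPM, so that 4-week silk lay below the control. Birc5, the survivin of the chromosomal passenger complex, was at 9.49, 74.7, 15.4, 25.3 and 12.6 CPM, with a log2 ratio of 2.92 (2.13 to 3.96) in 2-week sponge. Mcm6 differed less, at 66.5, 83.2, 79.0, 102 and 83.1 CPM. Within granulomas, 2-week silk was below 2-week sponge by 6.44 points (interval of the difference -9.97 to -2.58), with 12 of 35 genes at least 2-fold lower, against 3.15% of all genes. The 4-week sponge library was below 2-week sponge by 4.96 points (-8.63 to -1.03), with 15 of 35 genes at least 2-fold lower, against 4.03%. In cells that were not cycling the summed level was also higher in granulomas, at 450 CPM in the control, against 645, 674, 804 and 721 CPM.

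Endothelial cells, present in granulomas, showed the same order of weeks in both materials. The share cycling was 6.54% in 2-week sponge (53 of 810), 3.47% in 4-week sponge (17 of 490), 4.32% in 2-week silk (25 of 579) and 1.36% in 4-week silk (3 of 221), and the summed level was 1039, 854, 893 and 478 CPM. From 2 to 4 weeks the share was lower by 3.07 points in sponge (interval of the difference -5.39 to -0.557) and by 2.96 points in silk (-5.13 to -0.0566). In silk 20 of 35 genes were at least 2-fold lower at 4 weeks, against 6.77% of all genes, and in sponge 4 of 38, against 4.53%. At 4 weeks 17 of 37 genes were at least 2-fold lower in silk than in sponge, against 5.52% of all genes. Thinned shares were 0.811%, 0.677%, 0.916% and 1.04% in the same order and did not show the order of weeks, and after thinning the log2 ratio of the summed level in sponge at 4 against 2 weeks was 0.00. Markers of a second lineage were found in 12 of 53, 2 of 17 and 4 of 25 cycling endothelial cells of 2-week sponge, 4-week sponge and 2-week silk. These are 22.6%, 11.8% and 16%, against 17.4%, 9.39% and 9.67% of all endothelial cells there. In myocytes 33 of 273 cells were cycling in 2-week sponge and 5 of 94 in 4-week sponge, a difference of -6.77 points (-12.1 to 0.57).

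Comparing cycling with other Mo-Mac of the same library shows which further genes go with the call. The call used Mki67 and Top2a, and genes of the same process go with them, so these values are a description. Of 50 other cell cycle genes, 48, 48, 49, 49 and 48 were at least 2-fold higher in cycling Mo-Mac of the control, 2-week sponge, 4-week sponge, 2-week silk and 4-week silk, where 10.9%, 13.1%, 14.5%, 12.3% and 12.6% of all genes were. Their median log2 ratios were 3.44, 4.56, 4.62, 4.47 and 4.56. Pttg1, which codes for securin, differed little, at -0.19, -0.26, 0.05, 0.13 and -0.64.

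Of 15 genes that drive the step from G1 into S phase, 9, 12, 11, 11 and 11 were at least 2-fold higher. Ccne2, a cyclin E, had log2 ratios of 7.17, 5.07, 4.97, 5.62 and 4.46, and E2f8 had 3.84, 3.38, 4.02, 3.17 and 2.63, while Cdk6 differed by no more than 0.44 either way. Of 18 genes that slow the cycle, 2, 5, 4, 5 and 6 were at least 2-fold higher. For this list and the one before, the share over all genes was 10.9%, 13.1%, 14.5%, 12.3% and 12.6%. The 2 of 18 in the control lay near that share. Cdkn2c, a CDK inhibitor, was among the higher genes that slow the cycle, at 2.43, 3.86, 4.01, 4.37 and 4.23. So was Rbl1, the p107 subunit of DREAM, at 1.09, 2.03, 1.84, 1.69 and 1.88. At least 2-fold lower were 1, 2, 0, 1 and 1 of the 18, where 3.79%, 5.78%, 8.41%, 6.76% and 10.8% of all genes were. Tob1, an antiproliferative gene, was at -0.56, -1.67, -0.38, -0.64 and -0.60. Maf, a transcription factor that holds macrophages out of the cycle, was lower in all 5 libraries, at -0.53, -0.55, -0.68, -0.28 and -0.32. Cdkn1a, the p53 target p21, lay between -0.54 and 0.19.

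Genes of macrophage state varied between libraries. Of 8 monocyte genes, 0 were 2-fold lower in cycling Mo-Mac of the control and 7, 6, 8 and 5 in the granulomas. Of 12 genes of the foreign body response, 0, 2, 9, 1 and 7 were 2-fold lower and 5, 3, 0, 1 and 1 were 2-fold higher. Of all genes 3.79%, 5.78%, 8.41%, 6.76% and 10.8% were 2-fold lower in the same order. At least 2-fold higher were 10.9%, 13.1%, 14.5%, 12.3% and 12.6% of all genes, so counts of 1 of the 12 lie near these shares. Ctsk, a protease of giant cells and osteoclasts, was at -0.04, 0.32, -2.32, 0.77 and -1.15, and Mmp12, the macrophage elastase, at 1.03, -0.20, -1.47, -0.12 and -3.06, so the 4-week granulomas were the low ones for both. H2-Aa, of MHC class II, was at -0.03, -0.08, 1.37, -1.05 and -0.24, higher in cycling cells of 4-week sponge and lower in those of 2-week silk. The composition of the subclusters behind these cells differs between libraries, and its part was not tested.

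The same comparison was made in other classes, in 2-week sponge, 4-week sponge and 2-week silk. In fibroblasts 3, 3 and 3 of the 18 genes that slow the cycle were at least 2-fold higher in cycling cells, where 7.16%, 7.25% and 5.46% of all genes were. At least 2-fold lower were 1, 2 and 1, where 5.9%, 7.52% and 5.47% of all genes were. Cdkn2c was higher at 1.90, 1.98 and 2.41, as were Cdkn2d, another CDK inhibitor, at 2.89, 2.77 and 2.11 and Rbl1 at 1.95, 2.41 and 2.19. Cdkn1c, the CDK inhibitor p57, was lower, at -1.33, -2.05 and -0.99, and so was Btg2, at -0.93, -1.05 and -1.01. Ccnd2, a D-type cyclin, was at -1.01, -1.17 and -1.25. Of 12 genes of fibroblast state, 2, 0 and 0 were 2-fold higher and 1, 2 and 1 were 2-fold lower, Pi16, a gene of resting adventitial fibroblasts, being at -1.37, -1.24 and -1.82. Of the same list, Acta2 was higher, at 1.43, 0.72 and 0.40, and Tagln changed sign, at 1.28, 0.69 and -0.99. Above 0 were 4, 3 and 3 of the 12.

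In NK/T cells 4, 4 and 6 of the 18 genes that slow the cycle were 2-fold higher in cycling cells, where 8.32%, 9.03% and 12.5% of all genes were. At least 2-fold lower were 2, 6 and 2, where 8.24%, 13.6% and 14.6% of all genes were. These counts include genes with very few UMIs. Among the higher ones, Cdkn2a of 4-week sponge had 0 UMIs in the 16 cycling cells and passed through the added 0.5 counts. Cdkn1c, Cdkn2a and Cdkn2c of 2-week silk had 2, 3 and 3 UMIs in 10 cycling cells. Cdkn1b, the inhibitor p27, was at -1.10, -2.24 and -0.38. Of 14 genes of NK/T state, 2, 3 and 2 were 2-fold higher and 2, 4 and 4 were 2-fold lower. Il2ra, the interleukin 2 receptor alpha chain of activated and regulatory T cells, was at 1.18, 0.50 and 1.48. Of the same list, Ctla4 was also higher, at 0.53, 1.76 and 0.93, and Trdc was lower, at -0.58, -2.61 and -1.49. Gzmb, at 1.02, -0.35 and -3.97, and Foxp3, at -0.65, 0.46 and 0.67, changed sign. Above 0 were 6, 7 and 6 of the 14.

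In endothelial cells 4, 5 and 5 of the 18 were 2-fold higher, where 6.3%, 8.14% and 7.14% of all genes were, and 2, 4 and 4 were 2-fold lower, where 6.72%, 15.9% and 12% of all genes were. Cdkn2c was at 2.37, 1.87 and 1.84 and Rbl1 at 1.46, 2.25 and 1.55, while Tob1 was at -1.49, -1.68 and -1.61. Of 10 genes of endothelial state, 2, 2 and 2 were 2-fold higher and 1, 4 and 3 were 2-fold lower. The venule genes Ackr1 (-2.60, -3.38 and -0.34) and Selp (-0.96, -1.99 and -1.61) were lower in cycling cells. Apln and Esm1, genes of vessel tips, were at 0.06, 3.34 and 1.21 and at -0.25, 3.82 and 1.31. The 2-fold higher genes of 2-week sponge were Prox1, at 2.78, -2.77 and -1.67, and Flt4, at 1.26, -2.04 and -1.39. Both were lower in the other libraries. The lists of fibroblast, NK/T and endothelial state were added after the data had been seen.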

How the data were processed

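The labels' protocols describe droplet libraries of the 10x Chromium 3′ v3 kind, made from polyadenylated RNA of single cells. The submitters' processing notes name Cell Ranger 3.0.0, Seurat 3.0 and mm10, without roles; no source used here states how cells were filtered or doublets treated. Per the file headers, the deposited table holds raw counts of UMIs (21617 genes, 41191 cells), and a second one each cell's library, total count, mitochondrial percent, class and subcluster; the deposited totals equal the sums of the counts.

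The members and lists were chosen with earlier results of these data known. Everything was computed from the deposited counts with Python 3.11.15, numpy 2.4.6, scipy 1.17.1 and pandas 2.3.3. Levels are sums of UMIs over the cells of a class and library scaled to 1000000 UMIs. Ratios are log2 with 0.5 counts added to each sum, over genes with at least 20 UMIs in both libraries together. Counts of the listed genes between cycling and other cells used no such minimum. Intervals are conditional binomial. Libraries are single, so no test between groups was made, and 2-fold was the size taken as a call. Cells are not replicates. The ratio, interval and thinning steps were checked on simulated counts.

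A cell was counted as 2-lineage by its share of UMIs from the markers of a second class. That share had to reach 20% of the second class's own median share, on at least 3 UMIs. Fibroblast markers in myocytes, and the reverse, were not counted. No other doublet caller was run. Named genes were the 38, the fixed lists, and 10 further genes in each direction by the size of their ratio in cycling Mo-Mac. The markers of fibroblast, NK/T, endothelial and mural state used inside cycling cells were added after the data had been seen. Promoters are RefSeq windows of GRCm38.p6, and gene positions are from the GENCODE M21 annotation of GRCm38. Alternatives covered the limit for a cycling cell, depth, scaling, mitochondrial share (10 percent at most, the deposited percent), 2-lineage cells and subclusters.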

Additional observations from a re-analysis of the deposited data

Results flagged for a closer look

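The difference between silk and sponge went opposite ways at 2 and 4 weeks in 2 cell classes. In fibroblasts the share cycling was higher in 2-week silk (13.4% against 9.78%) and lower in 4-week silk (1.45% against 8.32%), so the difference at 4 weeks minus that at 2 weeks was -10.5 percentage points. For the summed level of the 38 genes in fibroblasts it was -2.03 on the log2 scale. In Mo-Mac it ran the other way, at 0.47 on the log2 scale, from 426 against 544 CPM at 2 weeks to 586 against 543 CPM at 4 weeks. Without C8 the Mo-Mac ratios of silk to sponge were -0.16 at 2 weeks and -0.13 at 4 weeks, both below 0, and the interval of the difference of shares at 4 weeks (-0.247 to 1.49 points) included 0. With 1 library per group these differences were not tested. Fibroblasts of 4-week silk numbered 276 and were the shallowest fibroblasts (median of 6909 UMIs), and Mo-Mac of that library numbered 1106.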

How the results depend on the processing

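No paired analysis was possible because each group is 1 library and the labels carry no replicate numbers. Library order below is control, 2-week sponge, 4-week sponge, 2-week silk and 4-week silk for Mo-Mac, and the 4 granulomas for fibroblasts. The share of cycling cells changed with the limit, with depth and, in Mo-Mac, with C8. At a sum of 1 or more it was 5.19, 5.46, 3.77, 3.27 and 4.88% in Mo-Mac and 14.7, 12.3, 18.7 and 3.99% in fibroblasts, and at 3 or more 0.442, 1.24, 0.869 and 0.611% in the first 4 Mo-Mac libraries and 8.48 and 6.84% in sponge fibroblasts. Cells with 3 or more mitotic members made up 1.44, 2.15, 2.32, 1.33 and 2.80% of Mo-Mac and 12.5, 12.3, 17.9 and 4.35% of fibroblasts. Thinned to 1000 UMIs the shares were 0.106, 0.361, 0.429, 0.189 and 0.549% in Mo-Mac and 1.42, 0.978 and 1.66% in the first 3 fibroblast libraries. Thinning to 5000 UMIs, an alternative added after seeing the data, gave 0.640, 2.09, 2.56 and 2.90% in Mo-Mac of the control, both sponges and 4-week silk, and 7.03% in fibroblasts of 2-week sponge. Without C8 the Mo-Mac shares were 0.647, 0.534, 0.190, 0.402 and 0.370%. Without the small and low-quality subclusters, fibroblasts of 2-week silk were at 15.8%. The Mo-Mac log2 ratios of the summed level to the control (0.73, 0.73, 0.38, 0.84 for 2-week sponge, 4-week sponge, 2-week silk and 4-week silk) were 0.32, 0.26, 0.17 and 0.13 without C8, 0.58, 0.62, 0.34 and 0.63 as means of per-cell shares, 1.37, 1.35, 0.76 and 1.66 as the median of the members, and 0.78, 0.77, 0.43 and 0.89 without 2-lineage cells. Those of both sponges and 4-week silk were 0.62, 0.61 and 0.67 thinned, the first 3 were 0.80, 0.78 and 0.47 without Stmn1, and the first 2 were 0.82 and 0.69 with size factors. With mitochondrial shares up to 10 percent the second was 0.79. Between granulomas, 2-week silk against 2-week sponge in Mo-Mac (-0.35) was -0.25 thinned, -0.16 without C8, -0.41 with size factors, -0.24 as per-cell means, -0.32 without Stmn1 and -0.61 as the median. At 4 weeks (0.11) it turned to -0.13 without C8, and was 0.012 as per-cell means, 0.36 as the median and 0.059 by mitochondrial share. Sponge at 4 weeks against 2 (-0.00) was -0.062 without C8, -0.13 with size factors, 0.038 as per-cell means and 0.058 by mitochondrial share. Silk at 4 weeks against 2 (0.46) turned to -0.038 without C8, and was 0.30 thinned, 0.29 as per-cell means, 0.40 without Stmn1 and 0.93 as the median. With 5 CPM added, the members past 2-fold numbered 2, 4, 1 and 9 against the control and 3 in silk at 4 against 2 weeks, where 23, 22, 15, 25 and 17 were counted before; low levels shrink by construction. Other reversals were NK/T cells in 4-week silk against 4-week sponge (0.067 thinned), endothelial cells in 2-week silk against 2-week sponge (0.14 as per-cell means, 0.093 thinned) and in sponge at 4 against 2 weeks (0.0043 thinned), and fibroblasts in sponge at 4 against 2 weeks (0.017 by mitochondrial share). For these the cause was not tested. In fibroblasts, the ratio of 4-week silk to 4-week sponge kept its sign in all alternatives, from -2.08 to -0.63. Median-of-ratios scaling shifted the log2 ratios by over 0.1 in 7 comparisons, most in NK/T cells of 2-week sponge against the control (0.24). The depth of 4-week silk limits each value that rests on it.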

Other observations

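The 10 genes outside every list with the largest ratio of cycling to other Mo-Mac over the 4 granulomas included 2 histone genes. They came from 426 genes with at least 100 UMIs in the cycling cells of each granuloma, and the ratio ranked was the lowest of the 4. Hist1h2ap, a histone H2A gene of a family of near-identical copies whose reads may be split between them, had log2 ratios of 5.24, 5.50, 4.44 and 5.76 in 2-week sponge, 4-week sponge, 2-week silk and 4-week silk, and 2.58 in the control. H2afv, a replacement histone of the H2A.Z kind, had 2.38, 2.88, 2.44 and 2.77, with 1.52 in the control. The other 8 were Nucks1, Dek, Ube2s, Nap1l1, Anp32b, Ran, Ranbp1 and Hnrnpab. Ran and its partner Ranbp1, which drive nuclear transport and spindle assembly, had lowest ratios of 0.96 and 0.95.

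In the other direction, among 6131 genes with enough counts in the other cells, the 10 with the largest ratio included the following. The chemokine Ccl24 had log2 ratios of -1.73, -1.95, -2.74 and -1.89, and Thbs1, the matrix protein thrombospondin, -2.03, -1.80, -1.27 and -3.16. Csf1, which codes for the main growth factor of macrophages, was at 2.42 CPM in cycling and 19.7 CPM in other Mo-Mac of 2-week sponge, and at 7.87 and 65.5 CPM in 4-week sponge. The other 7 were Mt3, Ppbp, Ifitm6, Cxcl14, Olr1, Rhob and F10. In the control Ccl24 and Thbs1 stood at 0.41 and -0.15, and Csf1 at 0 CPM in cycling and 1.14 CPM in other Mo-Mac.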
